A study of Homo sapiens with 12 samples.

Results

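The genes described here are 9 that mark the brush border and the transport functions of the kidney's proximal tubule. They are the endocytic receptor genes LRP2 and CUBN, the surface enzyme genes GGT1, ANPEP, MME and DPP4, and the transport genes SLC3A1, SLC4A4 and AQP1. They were read through every probe set (a group of short probes for 1 transcript) that the platform annotation assigns to exactly 1 of them. That gave 22 probe sets of 54613 that are no controls, and 9 genes of 19775 named in this way. The RNA came from HK-2 cells, an immortalised line of human renal proximal tubule epithelium, grown to near confluence in 6-well plates. Cells were given a high dose of a compound labelled Aa, or only the vehicle, and were taken after 24 h or 48 h, with 3 samples in each of the 4 groups. All groups are the same line, so they stand for 1 immortalised culture model and not for tubules in a kidney. What Aa is, its dose and the vehicle are not stated here. The study looked for expression signatures of toxicity to the kidney.

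The proximal tubule takes back most of what the glomerulus filters. Its apical membrane is folded into a brush border that carries peptidases, sodium-coupled and exchange transporters, and the receptors megalin and cubilin, which bind filtered proteins and bring them into the cell. Bicarbonate, amino acids and water then leave across the basolateral membrane, partly through transporters that work only there. Cultured tubule lines are known to lose much of this programme.

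Sequences around the transcription starts of 8 of the 9 genes (all but SLC3A1) were in RefSeq's promoter table for GRCh38.p14, as 17 windows of 300 bases that run from 250 before to 50 after each start. Some windows of 1 gene overlap. Shown are windows of DPP4 and SLC4A4, the members with a window whose transcripts were measured in these cells, with each CG pair in capitals. The DPP4 window lies at chr2:162074166-162074465 on the minus strand. The SLC4A4 windows shown, at chr4:71187009-71187308 and chr4:71338770-71339069 on the plus strand, are 2 of its 5, chosen for many and few CG pairs, and belong to different starts, and these arrays do not tell which start was used.
DPP4: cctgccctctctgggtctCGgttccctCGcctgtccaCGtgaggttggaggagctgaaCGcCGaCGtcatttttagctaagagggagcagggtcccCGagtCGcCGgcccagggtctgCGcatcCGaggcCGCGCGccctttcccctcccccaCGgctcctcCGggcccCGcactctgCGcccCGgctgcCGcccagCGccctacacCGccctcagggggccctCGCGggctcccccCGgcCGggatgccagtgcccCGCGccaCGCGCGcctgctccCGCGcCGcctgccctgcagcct
SLC4A4 CG-rich window: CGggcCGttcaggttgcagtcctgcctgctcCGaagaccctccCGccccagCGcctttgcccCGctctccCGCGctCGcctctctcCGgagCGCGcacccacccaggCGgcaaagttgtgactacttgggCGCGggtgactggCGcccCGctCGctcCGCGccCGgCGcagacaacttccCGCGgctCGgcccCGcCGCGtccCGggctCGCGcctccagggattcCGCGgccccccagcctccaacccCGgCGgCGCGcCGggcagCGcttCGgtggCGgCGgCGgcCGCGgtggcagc
SLC4A4 CG-poor window: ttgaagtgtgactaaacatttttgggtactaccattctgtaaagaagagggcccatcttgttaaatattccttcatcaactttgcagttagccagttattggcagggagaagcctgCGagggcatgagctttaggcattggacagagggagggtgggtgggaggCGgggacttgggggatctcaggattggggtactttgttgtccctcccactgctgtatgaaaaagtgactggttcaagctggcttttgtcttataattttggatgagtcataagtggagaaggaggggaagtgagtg
The DPP4 window holds 34 CG pairs, more than 84.4% of all 34943 windows in the table. The SLC4A4 windows shown hold 45 and 2 CG pairs, against a median of 14 over all windows. From lowest to highest coordinate its 5 windows hold 1, 44, 45, 5 and 2, so the count does not follow position. A search for the letters CAAAGTCCA of HNF4, on both strands, matched 0 of the 17 windows and 0.383% of all windows. The letters TATAAA, on either strand, were found in 1 of the 17, that of AQP1, and in 11.6% of all.

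Any pair of arrays from 1 group had a correlation of 0.994 to 0.997. The values are log2 expression values, and values near the lowest mode are background, so tests were limited to the 23669 probe sets that exceeded log2 4 on 3 or more arrays. The labels call the samples biological replicates, but nothing says that they came from separately grown cultures, so p-values measure the spread between these samples. Tests are limma's, with p adjusted by the Benjamini-Hochberg method over all 23669 probe sets, and a probe set was called at an adjusted p under 0.05. In bulk RNA, fewer cells that carry a transcript and less of it per cell cannot be told apart.

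Only 3 of the 9 genes were measured above background: DPP4 in 3 of 3 probe sets, SLC4A4 in 5 of 5 and SLC3A1 in 1 of 3. The other 13 probe sets, which include all those of LRP2, CUBN, GGT1, ANPEP, MME and AQP1, were not over log2 4 on enough arrays to be tested. Across them 1 of the values exceeded log2 4, a GGT1 value of 4.0. Most of these 9 markers of the labelled cell type therefore gave no signal over background in these probe sets, in control cells too. Probe sets that name several genes were not read, and GGT1 was read through 233837_at alone.

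**Figure D1:**
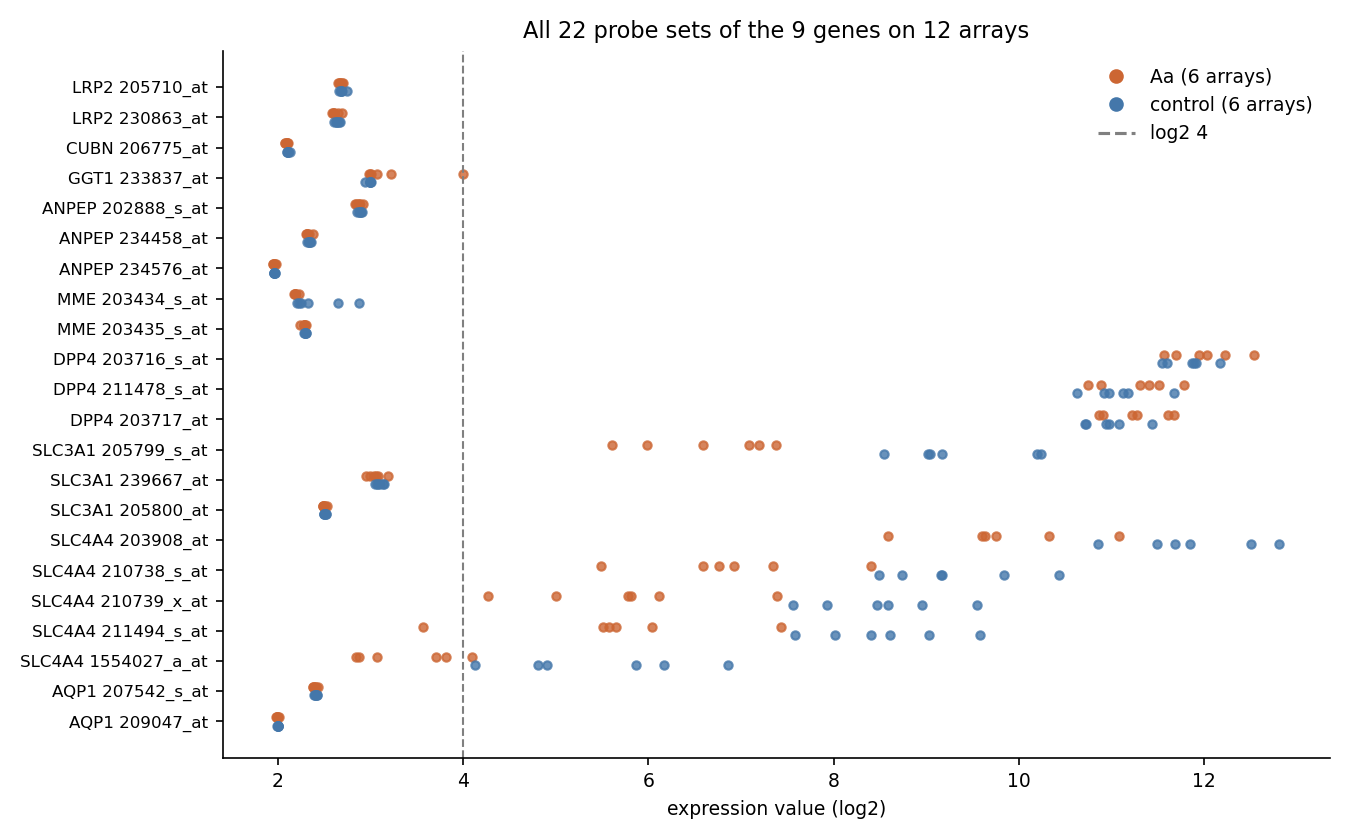
Expression values (log2, horizontal axis) of all 22 probe sets of the 9 genes, 1 point per array, with Aa arrays above control arrays in each row and a dashed line at log2 4. The probe sets of DPP4 and SLC4A4 and 1 of SLC3A1 lie to the right of the line on most arrays, and the other 13 lie to its left but for a GGT1 value of 4.0.

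The receptor genes were at background. LRP2, which encodes megalin, read between 2.65 and 2.75 (205710_at) and between 2.59 and 2.69 (230863_at) over the 12 arrays. CUBN, which encodes cubilin, read between 2.08 and 2.13 (206775_at). Values this low are background and have no order.

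The surface enzyme genes ANPEP, MME and GGT1 were at background as well. ANPEP, which encodes aminopeptidase N, read between 2.83 and 2.92 (202888_s_at), between 2.31 and 2.38 (234458_at) and between 1.95 and 1.98 (234576_at). MME, which encodes the peptidase neprilysin, read between 2.24 and 2.31 in 203435_s_at. Its other probe set, 203434_s_at, was between 2.18 and 2.23 on the Aa arrays, and reached 2.88 on control replicate 3 of 24 h and 2.66 on control replicate 2 of 48 h. The MME values on those arrays were above the rest but still under log2 4.

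GGT1 encodes gamma-glutamyltransferase, which starts the breakdown of extracellular glutathione. Its probe set 233837_at read 3.00, 3.00 and 3.01 on the control arrays and 3.07, 2.99 and 3.00 on the Aa arrays at 24 h. For 48 h it read 3.00, 2.94 and 3.00 on control arrays and 3.22, 4.0 and 3.01 on Aa arrays. All Aa values at 48 h were above the control values of that time, but only replicate 2 reached log2 4. GGT1 belongs to a family of near-identical genes, so this probe set's signal is uncertain.

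AQP1, which encodes the water channel of the proximal tubule, read between 2.38 and 2.43 (207542_s_at) and between 1.99 and 2.01 (209047_at). Over the 13 untested probe sets the Aa mean minus the control mean ran from -0.24 (MME 203434_s_at) to 0.02 (GGT1) at 24 h. It was below 0 in 12 of 13, with a median of -0.03. At 48 h it ran from -0.21 to 0.43, below 0 in 2 and above 0 in 11, with a median of 0.00. Without the filter, limma called 0 of these 13 at either time, where the smallest adjusted p was 0.188 (SLC3A1 239667_at at 24 h) and 0.194 (GGT1 at 48 h).

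DPP4, which encodes a peptidase that trims incretins and chemokines, was over background, unlike the other surface enzymes among the 9 genes. Probe set 203716_s_at read 11.60, 11.92 and 11.54 on control arrays and 11.57, 11.95 and 11.70 on Aa arrays at 24 h. At 48 h it read 11.89, 12.17 and 11.87 on control arrays and 12.23, 12.53 and 12.03 on Aa arrays. The groups overlapped at both times. The log2 change was 0.05 (95% confidence interval -0.31 to 0.42; adjusted p = 0.816) at 24 h and 0.29 (-0.08 to 0.65; adjusted p = 0.158) at 48 h. The other probe sets gave 0.10 (211478_s_at) and 0.22 (203717_at) at 24 h, and 0.28 and 0.34 at 48 h, and none of the 3 was called at either time.

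With the replicate number as a block, 203716_s_at and 203717_at were called as higher at 48 h (adjusted p = 0.0115 and 0.0139). Without Aa replicate 3 of 48 h, 203717_at was also called (log2 change 0.48, adjusted p = 0.0399), as it was without control replicate 2 of 48 h (0.47, adjusted p = 0.0433). With arrays scaled to the hybridisation controls, which moved the median change of all probe sets to -0.30 at 24 h and -0.49 at 48 h, the DPP4 changes at both times were below 0 and not called. The lowest bound of the 3 intervals at 48 h was -0.24. DPP4's 3 probe sets correlated at 0.922 to 0.952 over the 12 arrays.

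The transport genes SLC3A1 and SLC4A4 were lower in Aa-treated cells. Of the 9 tested probe sets, 5 were called as lower and 0 as higher at 24 h, and 6 as lower and 0 as higher at 48 h. Over all tested probe sets 22.2% were called as lower and 24.3% as higher at 24 h, and 32.6% and 28.2% at 48 h. Most of these counts come from the 5 probe sets of SLC4A4, which read the same gene and are not independent. With each gene read through its probe set of highest mean, 1 of 3 genes was lower at 24 h and 2 of 3 at 48 h, against 22.3% and 33.2% of all 11184 genes. The median change of the 9 was -1.29 at 24 h and -3.06 at 48 h, beside 0.00 and -0.04 over all probe sets.

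**Figure D2:**
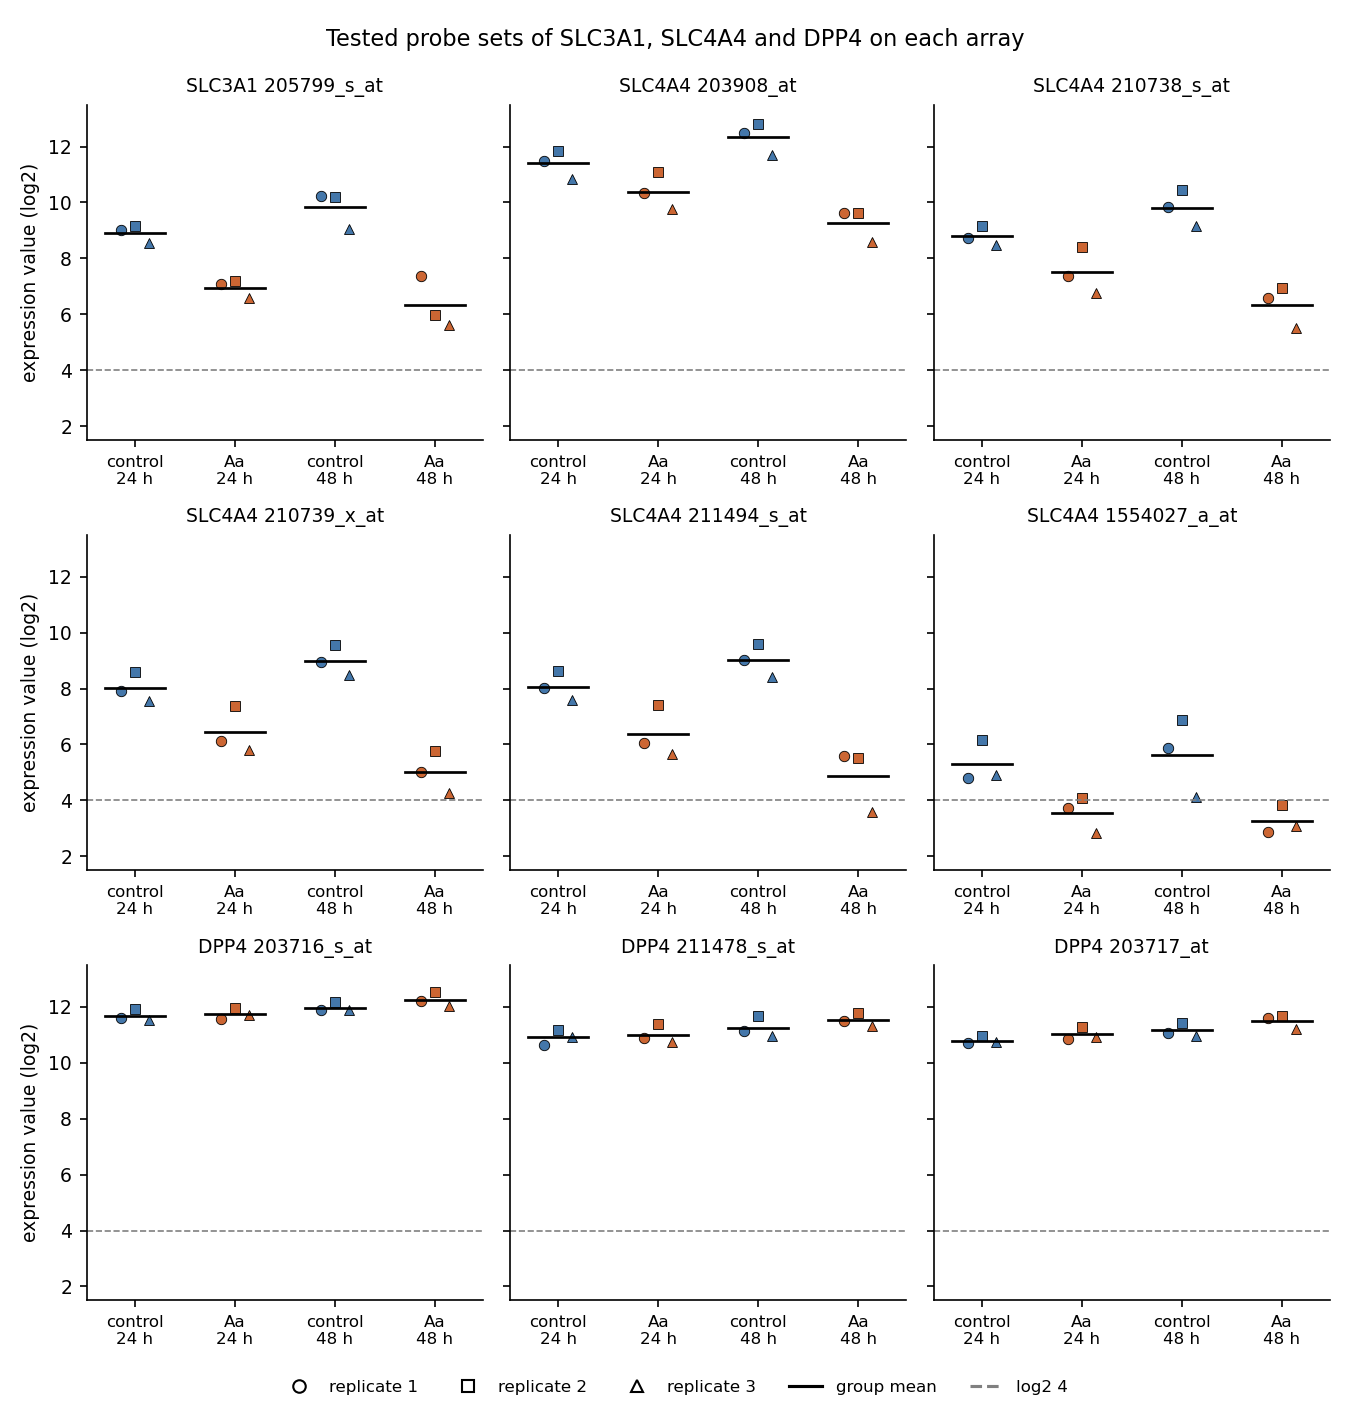
Expression values (log2, vertical axis) of the 9 tested probe sets on each array, by treatment and time, with symbols for the replicate numbers, bars for group means and a dashed line at log2 4. SLC3A1 and 4 of the 5 SLC4A4 probe sets show Aa arrays under all control arrays of the same time at both times, 203908_at does so at 48 h, and DPP4 shows overlapping groups.

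SLC3A1 encodes the heavy chain of the apical exchanger for cystine and dibasic amino acids, whose loss causes cystinuria. Probe set 205799_s_at read 9.02, 9.17 and 8.55 on control arrays and 7.08, 7.19 and 6.59 on Aa arrays at 24 h. By 48 h the values were 10.24, 10.19 and 9.04 on control arrays and 7.38, 5.99 and 5.61 on Aa arrays. Every Aa array lay under every control array of its time, as was so for 5 of the 9 tested probe sets at 24 h and 6 at 48 h (29.2% and 35.6% of all tested probe sets). Aa replicate 1 of 48 h was the highest of its group. It was lower by 3.89-fold at 24 h (log2 change -1.96, SE 0.44, adjusted p = 0.00406) and by 11.3-fold at 48 h (log2 change -3.50, SE 0.44, adjusted p = 5.1e-05). Its calls at 24 h and at 48 h held in each of the 23 alternatives run.

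The 3 probe sets of SLC3A1 disagreed, but in whether they gave a signal. Probe set 205800_at read between 2.49 and 2.53 and 239667_at between 2.96 and 3.19 on all 12 arrays, so neither exceeded log2 4 on any array. Their Aa mean minus control mean was -0.02 and -0.10 at 24 h, and 0.00 and 0.02 at 48 h. These differences are at background and give no direction. The change in SLC3A1 therefore rests on 1 probe set.

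SLC3A1 overlaps PREPL, a peptidase-like gene, by 4831 bases on chromosome 2 in RefSeq's gene table. PREPL was also lower with Aa in its 3 tested probe sets of 4, with log2 changes of -1.18 to -1.04 at 24 h and -1.70 to -1.58 at 48 h. Its probe set 212215_at read 11.93, 11.89 and 11.58 on control arrays and 10.99, 11.05 and 10.24 on Aa arrays at 24 h (log2 change -1.04, adjusted p = 0.00381). PREPL was singled out after its values were seen. Whether 205799_s_at picks up transcripts of both genes was not tested.

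SLC7A9, the light chain that pairs with SLC3A1 to form the exchanger, went the other way. Its single probe set, 220135_s_at, read 2.00, 1.84 and 1.86 on control arrays and 6.82, 7.05 and 5.74 on Aa arrays at 24 h. By 48 h they were 1.85, 1.83 and 2.00 on control arrays and 6.58, 7.13 and 6.30 on Aa arrays. All control values were background and all Aa values were over log2 4. SLC7A9 was at least 5.81-fold higher at 24 h (adjusted p = 8.08e-07) and at least 6.37-fold higher at 48 h (adjusted p = 3.7e-07), with the control arrays set at log2 4. This probe set passed the filter only through the Aa arrays, so it had to differ.

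SLC3A2 encodes the related heavy chain of basolateral amino acid exchangers. It read 8.68, 8.27 and 8.81 on control arrays and 9.41, 8.98 and 9.50 on Aa arrays at 24 h. The values of 48 h were 8.98, 8.71 and 8.80 on control arrays and 10.00, 9.88 and 10.10 on Aa arrays. The groups did not overlap at either time. SLC3A2 was 1.64-fold higher at 24 h (log2 change 0.71, adjusted p = 0.00588; 0.43, adjusted p = 0.0906 with hybridisation-control scaling) and 2.24-fold higher at 48 h (log2 change 1.16, adjusted p = 0.000156). In the same cells SLC3A1 was thus lower, SLC7A9 higher and SLC3A2 higher.

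**Figure D3:**
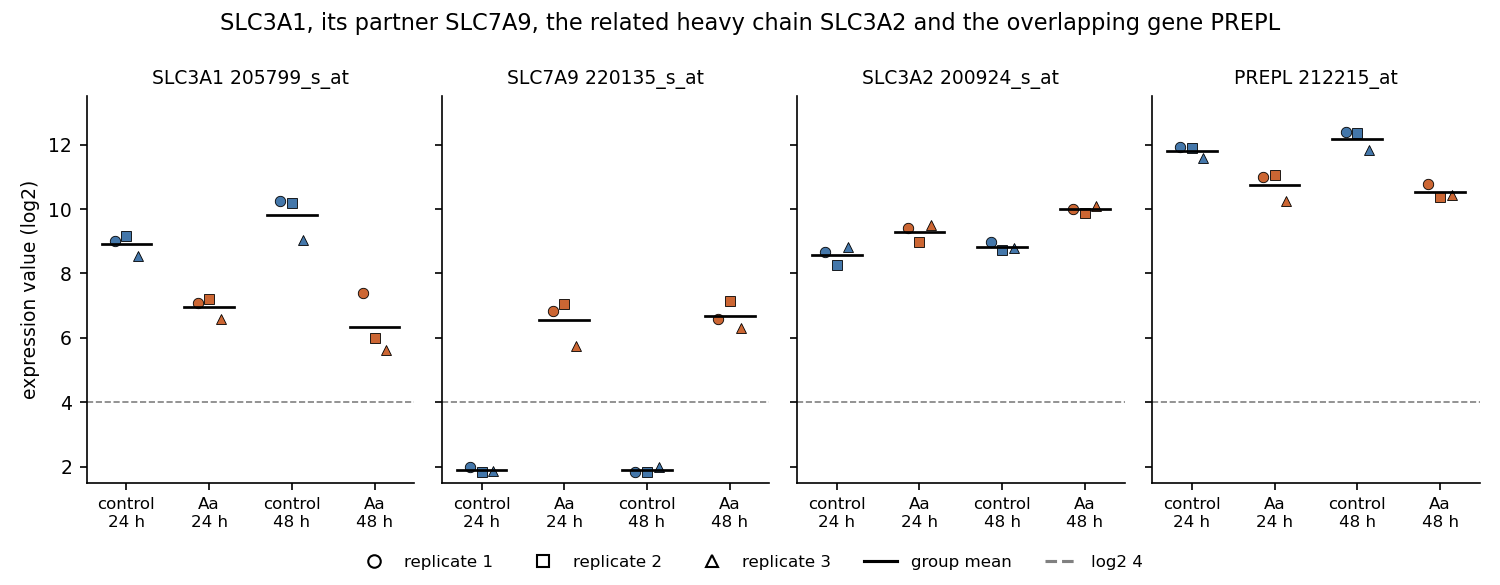
Expression values (log2, vertical axis) on each array for SLC3A1, its partner SLC7A9, the related heavy chain SLC3A2 and the overlapping gene PREPL, by treatment and time, with bars for group means and a dashed line at log2 4. SLC3A1 and PREPL are lower and SLC7A9 and SLC3A2 are higher on Aa arrays, with no overlap within a time in any of the 4 panels.

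SLC4A4 encodes the sodium bicarbonate cotransporter that returns bicarbonate to the blood across the basolateral membrane. In 203908_at, its probe set of highest mean, values were 11.49, 11.85 and 10.85 on control arrays and 10.33, 11.08 and 9.75 on Aa arrays at 24 h. At 48 h they were 12.50, 12.81 and 11.68 on control arrays and 9.61, 9.63 and 8.58 on Aa arrays. The groups overlapped at 24 h, through Aa replicate 2 and control replicate 3, and were apart at 48 h. The log2 change was -1.01 at 24 h (SE 0.42, adjusted p = 0.073; adjusted p = 0.000164 with the replicate block and 0.0223 with hybridisation-control scaling) and -3.06 at 48 h (SE 0.42, adjusted p = 9.79e-05), an 8.32-fold fall.

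The other SLC4A4 probe sets were called as lower at 24 h as well. In 210738_s_at control arrays read 8.74, 9.15 and 8.49 and Aa arrays 7.35, 8.41 and 6.76 at 24 h, and at 48 h they read 9.84, 10.43 and 9.17 against 6.59, 6.92 and 5.49. It was lower by 2.44-fold at 24 h (adjusted p = 0.0452, and 0.0574 with equal array medians) and by 11.1-fold at 48 h (adjusted p = 8.73e-05). In 210739_x_at control arrays read 7.93, 8.59 and 7.56 and Aa arrays 6.11, 7.39 and 5.81 at 24 h, and at 48 h they read 8.95, 9.54 and 8.47 against 5.00, 5.78 and 4.27. This was a 3.00-fold fall at 24 h (log2 change -1.59) and a 15.7-fold fall at 48 h (log2 change -3.97). Aa replicate 2 was the highest Aa array of 24 h in both probe sets, and no Aa array reached a control array of its time.

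Probe set 211494_s_at reached background only on Aa replicate 3 of 48 h, and 1554027_a_at did so on most Aa arrays. In 211494_s_at control arrays read 8.01, 8.61 and 7.58 and Aa arrays 6.04, 7.43 and 5.65 at 24 h, and at 48 h they read 9.03, 9.58 and 8.40 against 5.57, 5.51 and 3.57. It was lower by 3.24-fold at 24 h (adjusted p = 0.0363) and by at least 15.8-fold at 48 h (adjusted p = 0.000126), with Aa replicate 3 set at log2 4. In 1554027_a_at, the dimmest of the 5, control arrays read 4.81, 6.16 and 4.91 at 24 h and 5.87, 6.86 and 4.13 at 48 h. On Aa arrays this one was over log2 4 only in replicate 2 of 24 h, at 4.10, so it passed the filter mainly through the control arrays. That favours a fall, so the tests of 1554027_a_at are no support for one. It was lower by at least 2.39-fold at 24 h (adjusted p = 0.0419, and 0.089 with all values under log2 4 raised to it) and by at least 3.07-fold at 48 h (adjusted p = 0.00728). That bound is 2.00-fold without control replicate 2 of 48 h and 5.15-fold without control replicate 3 of 48 h.

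The number of calls at 24 h depended on the filter and on which array was left out. With no filter none of the SLC4A4 probe sets was called at 24 h, where the 4 called otherwise had adjusted p from 0.0747 to 0.144. Of the 9 tested probe sets, the number called was 1 without Aa replicate 1, Aa replicate 3 or control replicate 2 of 24 h, and 2 without control replicate 1 of 24 h. It was 3 without replicate 1 of either group of 48 h, 4 without control replicate 3 of 24 h or Aa replicate 3 of 48 h, and 5 or 6 without any of the others. SLC3A1 stayed called in all 12 of these fits. At 48 h the 6 probe sets called as lower stayed so without any array. The number of probe sets called was 6 at 24 h with the replicate block, where 203908_at was added. Pairs of SLC4A4 probe sets correlated at 0.869 to 0.994 over the 12 arrays.

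**Figure D4:**
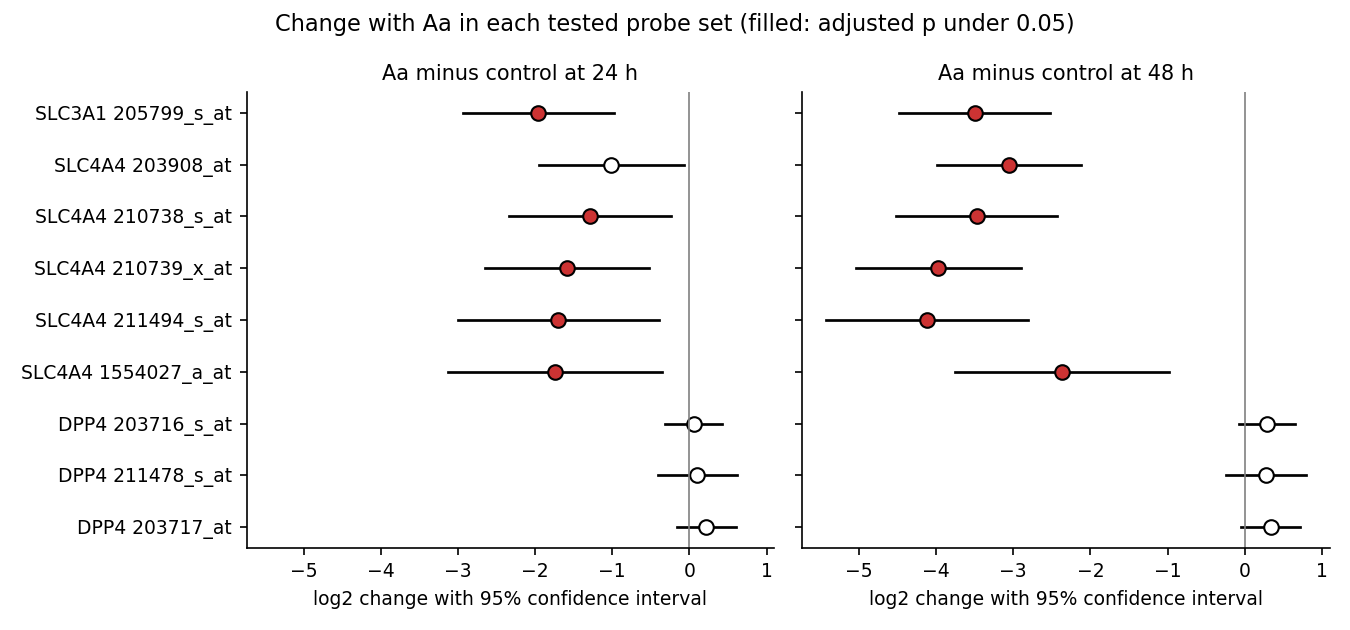
Log2 change of Aa minus control (horizontal axis) with 95% confidence intervals for the 9 tested probe sets at 24 h and 48 h, filled where the adjusted p was under 0.05. At 48 h the intervals of SLC3A1 and all 5 SLC4A4 probe sets lie below 0, and those of the 3 DPP4 probe sets include 0.

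The difference between times was then tested. In control cells SLC4A4 (203908_at) had means of 11.40 ± 0.50 at 24 h and 12.33 ± 0.58 at 48 h (SD, n = 3), while in Aa cells it had 10.39 ± 0.67 and 9.27 ± 0.60. SLC3A1 had 8.91 ± 0.33 and 9.83 ± 0.68 in control cells, and 6.95 ± 0.32 and 6.33 ± 0.93 in Aa cells. The control values at 48 h minus those at 24 h were above 0 in all 9 tested probe sets, from 0.29 (DPP4 203716_s_at) to 1.02 (SLC4A4 210738_s_at). These probe sets read only 3 genes and are not independent. The median over all tested probe sets was -0.01. By limma 0 of the 9 were called, with 0 at an unadjusted p under 0.05, where 0.224% of all tested probe sets were called. With the replicate block 3 SLC4A4 probe sets were called as higher in control cells at 48 h: 203908_at (log2 change 0.93, adjusted p = 0.00792), 210738_s_at (1.02, adjusted p = 0.0173) and 210739_x_at (0.96, adjusted p = 0.0102).

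The change at 48 h minus the change at 24 h was called in 2 of the 9, beside 15.5% of all tested probe sets. These were SLC4A4 203908_at (-2.05, SE 0.60, adjusted p = 0.0433) and 210739_x_at (-2.39, SE 0.68, adjusted p = 0.0402). With the block 5 were called, where SLC3A1 (-1.54, adjusted p = 0.119 without and 0.0211 with the block), 210738_s_at (adjusted p = 0.0504 and 0.00108) and 211494_s_at (adjusted p = 0.0737 and 0.00407) were added. The number called was 0 without Aa replicate 1 or 2 of 24 h, control replicate 1 or 3 of 24 h, Aa replicate 3 of 48 h, or control replicate 1 or 2 of 48 h. It was 2 without control replicate 2 of 24 h or Aa replicate 1 or 2 of 48 h, 3 without Aa replicate 3 of 24 h and 4 without control replicate 3 of 48 h. The DPP4 differences between times ran from 0.12 to 0.23 and were not called.

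The genes whose values over the 12 arrays were most like those of SLC4A4 (203908_at) were KCNJ16, which encodes a basolateral potassium channel (Pearson r = 0.990), and the transcription factor gene ADNP (r = 0.988). For SLC3A1 they were the membrane adaptor gene ANK3 (r = 0.989) and the actin regulator gene CYFIP2 (r = 0.987). These are descriptions over 6 Aa and 6 control arrays, and all share the split between treatments. In all, 177 of 11183 genes had an r over 0.95 with SLC4A4 and 269 with SLC3A1.

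Other genes of the proximal tubule were read from lists, each gene through its probe set of highest mean. Over all 11184 genes tested in this way 22.3% were lower and 25.6% higher at 24 h, and 33.2% and 29.9% at 48 h. Among 19 apical enzymes and scaffold genes 16 were measured and 4 tested; 2 were lower at 24 h and 3 at 48 h, with medians of -0.80 and -1.36. MYO6, which encodes a motor of apical endocytosis, read 8.02, 8.36 and 8.50 on control arrays and 4.71, 5.18 and 5.20 on Aa arrays at 24 h. It was 9.60-fold lower at 24 h (adjusted p = 2.56e-07) and 15.5-fold lower at 48 h (adjusted p = 4.24e-08). ENPEP, a peptidase that acts on angiotensin, was lower by 2.23-fold at 24 h (adjusted p = 0.0295) and by 3.27-fold at 48 h (adjusted p = 0.00268). Its call at 24 h was lost without Aa replicate 3 (log2 change -0.84), control replicate 1 (-0.96) or control replicate 2 (-1.07) of 24 h.

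The machinery that works with megalin and cubilin was measured although the receptors were not. Of 12 listed genes 9 were tested; 1 was higher and 2 lower at 24 h, and 1 higher and 6 lower at 48 h (medians -0.07 and -0.33). At 24 h 1 gene in all was called without any 1 Aa array, or without control replicate 1 or 2, of 24 h. DAB2, the adaptor that binds megalin's tail, had a log2 change of 0.10 at 24 h in 201280_s_at (adjusted p = 0.801), which was -0.18 with hybridisation-control scaling. In that probe set it fell by 1.12 at 48 h (adjusted p = 0.00719). The other tested DAB2 probe sets gave 0.06, -0.30 and -0.32 at 24 h, and -0.98, -1.56 and -1.81 at 48 h. CLCN5, an endosomal chloride exchanger that is mutated in Dent disease, read 9.36, 9.13 and 8.03 on control arrays and 6.33, 5.96 and 5.10 on Aa arrays at 48 h, which is an 8.25-fold fall (adjusted p = 7.06e-05). CTNS, the lysosomal cystine exporter, fell by 0.70 at 24 h (adjusted p = 0.00325) and fell by 1.61 at 48 h (adjusted p = 6.18e-06) on the log2 scale.

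Transporters went both ways. Of 22 apical transporter genes 6 were tested, with 3 higher and 3 lower at 24 h and 3 higher and 2 lower at 48 h (medians 0.38 and 0.58). These counts and medians include SLC7A9 as higher, which was tested only through its Aa arrays and so had to differ. Besides SLC7A9 the organic cation transporter gene SLC22A4 rose by 1.66 at 24 h and 2.62 at 48 h (adjusted p = 1.62e-05 and 3.7e-07). Of 24 basolateral transporter and acid-base genes 12 were tested, with 5 higher and 4 lower at 24 h and 5 higher and 7 lower at 48 h (medians -0.38 and -1.17). At 24 h 5 of these 12 were called without Aa replicate 3 or control replicate 2 of 24 h. The potassium channel gene KCNJ15 fell by 1.58 at 24 h (adjusted p = 0.00164). The carbonic anhydrase gene CA12 fell by 3.55 at 24 h (adjusted p = 0.00995). At 48 h the log2 change of CA12 was -3.21, with Aa arrays at 7.80, 7.85 and 4.05. Its call at 48 h was lost with no filter (adjusted p = 0.0516). The anion transporter gene SLCO4C1 fell by 2.89 at 48 h (adjusted p = 2.12e-05).

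**Figure D5:**
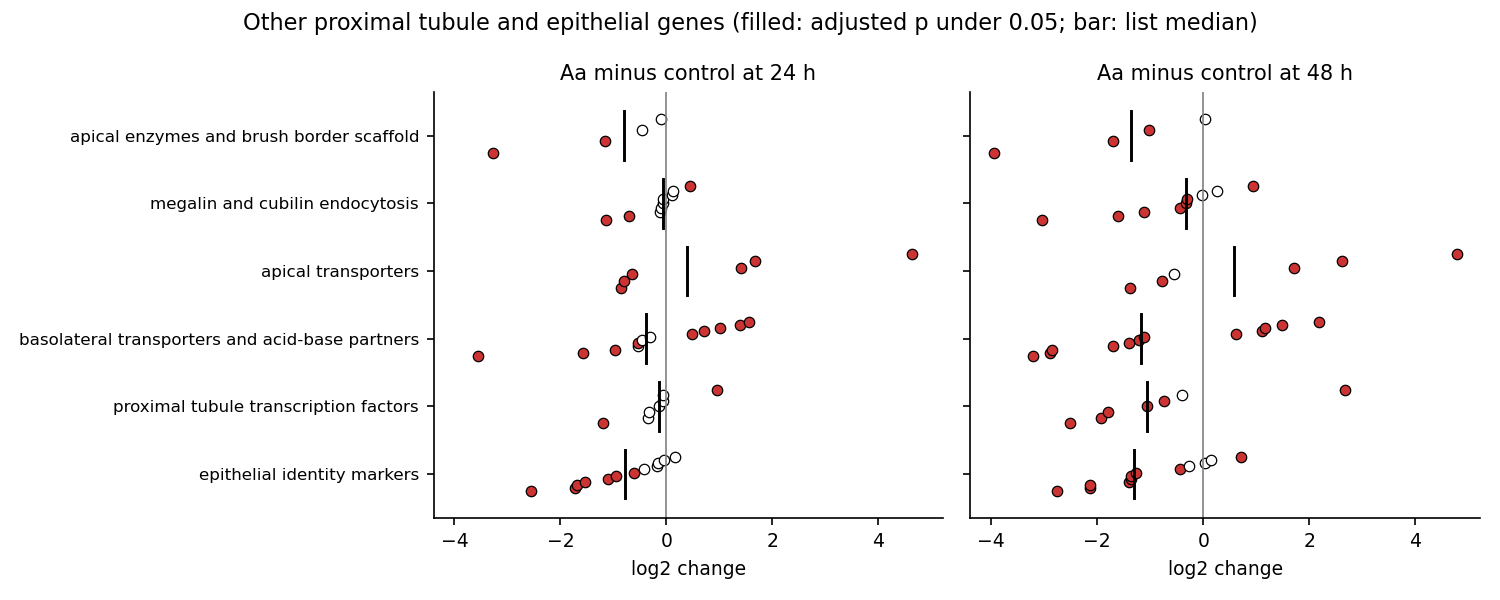
Log2 change of Aa minus control (horizontal axis) for tested genes of 6 lists at 24 h and 48 h, 1 point per gene, filled where the adjusted p was under 0.05, with a bar at the list median. Apical transporters lie on both sides of 0 with SLC7A9 at the far right, and most epithelial identity markers lie below 0.

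Transcription factors of the proximal tubule had 7 of 12 genes tested, with 1 higher and 1 lower at 24 h and 1 higher and 5 lower at 48 h (medians -0.15 and -1.07). HNF4G fell by 1.20 at 24 h (adjusted p = 4.72e-05), and RXRA, the partner of many nuclear receptors, fell by 2.51 at 48 h (adjusted p = 9.52e-05). LHX1, a gene of the developing nephron, read 4.26, 3.46 and 3.68 on control arrays and 4.93, 4.78 and 4.56 on Aa arrays at 24 h, and 3.67, 3.44 and 3.10 against 6.71, 6.01 and 5.53 at 48 h. LHX1 is the 1 gene counted as higher at both times. It passed the filter through the Aa arrays, which favours a rise, so its tests and that count are no support for one. It was at least 1.59-fold higher at 24 h (adjusted p = 0.0201) and at least 4.24-fold higher at 48 h (adjusted p = 1.74e-05). Its call at 24 h was lost without Aa replicate 1 or 2 or control replicate 2 or 3 of 24 h (adjusted p = 0.0668, 0.0501, 0.0768 and 0.0604). The call was also lost with no filter (adjusted p = 0.0689) and with hybridisation-control scaling (0.0897). HNF4A and AMN were not analysed here. Of 12 epithelial identity genes all were tested, with 7 lower at 24 h, and 8 lower and 1 higher at 48 h (medians -0.79 and -1.31). The claudin gene CLDN2, which forms the leaky junctions of the proximal tubule, fell by 2.55 at 24 h and 2.14 at 48 h. The kidney cadherin gene CDH6 fell by 2.75 at 48 h (adjusted p = 2.46e-05).

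Markers of other cells were checked beside these results. Of measured markers, 6 of 6 leukocyte, 6 of 8 endothelial, 10 of 13 distal nephron, 4 of 7 fibroblast and 2 of 5 podocyte genes never exceeded log2 4, among them PTPRC, PECAM1, AQP2, PDGFRB and NPHS1. The summed linear value of the 5 podocyte genes was 11050 to 13014 on control arrays and 3490 to 5591 on Aa arrays at 24 h, and 9258 to 11538 and 1877 to 3399 at 48 h. Of the 3 podocyte genes tested, 2 were lower and 1 was higher at both times, and PTPRO, a phosphatase gene, carries most of the sum. PTPRO fell by 1.35 at 24 h and fell by 2.15 at 48 h, while SYNPO, which encodes an actin-binding protein, rose by 1.02 and 1.52 (adjusted p = 0.000243 and 7.77e-06). PODXL passed the filter mainly through the control arrays, which favours a fall. Its tests and its part in the count of 2 lower are no support for one. It was over log2 4 on 1 of the 3 Aa arrays of 24 h and was at least 1.46-fold lower there (adjusted p = 0.0169). That call was lost without Aa replicate 1 or 2 or control replicate 3 of 24 h (adjusted p = 0.0692, 0.0554 and 0.0646). Of the 3 fibroblast markers tested, 1 was called as lower at 24 h and 0 were called at 48 h. The called gene, COL1A1, fell by 0.73 at 24 h (adjusted p = 0.0111). RNA integrity was read as the 3' minus 5' gap of the ACTB and GAPDH controls, which was 0.25 to 0.36 on control and 0.26 to 0.55 on Aa arrays at 24 h, and 0.23 to 0.42 and 0.43 to 0.68 at 48 h (log2). The part of these shifts in the falls of SLC3A1 and SLC4A4 was not tested.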

How the data were processed

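The deposited log2 values come from GCRMA, which the submitters' processing notes name as the authors' tool. It corrects background by probe sequence, normalises across arrays and gives 1 value per probe set. Which arrays were normalised together is not stated, and the base of the logarithm was inferred (array medians 2.91 to 3.02). A change common to most transcripts would be hidden by this. Probe sets were named from the platform annotation: 41091 named 1 gene, 1801 several and 11721 none, and 62 were controls.

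limma 3.58.1 in R 4.3.3 fitted the 4 group means over 12 arrays (8 residual and 2.75 prior degrees of freedom) after checks on simulated data. The median SE was 0.18 within a time, and the number of arrays limits precision. Folds called "at least" count any array under log2 4 in the dimmer group as log2 4.

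Replicate numbers pair the samples: deviations from group means correlated at 0.251 to 0.581 for all 18 same-numbered pairs and -0.419 to -0.024 for the 36 others. What they share is not stated.

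The members and gene lists were chosen with earlier results of these data known. Named were all member probe sets, up to 2 called genes per list and time by size of change, SLC7A9, SLC3A2, AMN, DAB2 and HNF4A, and the 2 genes most like SLC3A1 and SLC4A4. PREPL was added after its values were seen. Some items that the rule names are not reported here. Alternatives covered the filter, probe sets per gene, array scaling, the block, the fit, a floor at log2 4 (chosen after seeing the data) and each array left out.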

Additional observations from a re-analysis of the deposited data

Results flagged for a closer look

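The effect of Aa on SLC4A4 differed between 24 h and 48 h by limma's interaction term in 2 of its 5 probe sets. In 203908_at the change at 48 h minus the change at 24 h was -2.05, and in 210739_x_at it was -2.39 (log2; adjusted p = 0.0433 and 0.0402). Control means of 203908_at were 11.40 at 24 h and 12.33 at 48 h, while Aa means were 10.39 and 9.27. These calls were not stable, since 7 of the 12 fits that leave out an array called 0 of the 9 member probe sets. Where leaving out an array lost the call, 203908_at still ran from -2.23 to -1.70 and 210739_x_at from -2.55 to -1.91. With the replicate number as a block, 5 of the 9 were called. Outlying samples were not searched for, since groups hold 3 arrays.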

How the results depend on the processing

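The falls of SLC3A1 at 24 h and 48 h and of all 5 SLC4A4 probe sets at 48 h kept their direction and their call in every one of the 23 alternatives that could test them, with adjusted p up to 0.0201 and 0.0328. At 24 h the count of called member probe sets was 5, and 1 with no filter or with 1 probe set per gene (3 members tested), with a range of 1 to 6 when an array was left out. At 48 h it was 6, 2 with 1 probe set per gene, and 6 to 7 when an array was left out. For the difference between times it was 2, and 0 with no filter, 1 with 1 probe set per gene, 4 with hybridisation-control scaling, 5 with the replicate block and 0 to 4 when an array was left out. Between control times it was 0, and 3 with the replicate block; leaving out an array gave 0 to 0. The block changed the calls given in the text and no other member's. Of the single changes, 702 values kept side and direction, 46 lost and 25 gained the call.

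Direction turned with hybridisation-control scaling for DPP4 203716_s_at (24 h -0.23, 48 h -0.16, between controls -0.022), 203717_at (-0.062, -0.10, and -0.043 between changes), 211478_s_at (-0.18, -0.16), DAB2 at 24 h (-0.18) and COL1A1 at 48 h (-0.31). When an array was left out, values ran at 24 h from -0.051 to 0.17 for DPP4 203716_s_at, -0.092 to 0.24 for 211478_s_at and -0.11 to 0.25 for DAB2, between controls from -0.29 to 1.07 for SLC4A4 1554027_a_at, and at 48 h from -0.030 to 0.23 for COL1A1. None of the turned values was called.

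Over all probe sets that scaling moved the share of calls that were higher from 52.3% to 29.5% at 24 h, from 46.4% to 22.6% at 48 h, from 35.6% to 20.1% for the difference between times (45.8% with quantile normalisation), and from 56.6% to 1.3% between controls. Calls at 24 h and 48 h went from 11016 and 14369 to 5492 and 7210 with 1 probe set per gene, which tests fewer. For the difference between times 3659 became 2179 with that choice, 7784 with the block and 2168 to 4395 when an array was left out. Between controls 53 became 2428 with the block, 2931 with hybridisation-control scaling, 138 with trend and robust moderation, 95 with the floor and 4 to 738 when an array was left out. The cause of these shifts was not tested.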
